A study of Mus musculus with 10 samples.

Results

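The comparison of ZBTB38 HET with ZBTB38 KO germinal center (GC) B cells asked how the RNA of these cells differs between mice that keep 1 functional Zbtb38 allele and mice that keep none, with Cre recombinase present in both. It took in 8 of the 10 RNA-seq libraries of the series, chosen by genotype: 2 ZBTB38 HET libraries (Zbtb38fl/+ x Vav-Cre) and 6 ZBTB38 KO libraries (Zbtb38fl/fl x Vav-Cre). The other 2 libraries, ZBTB38 WT (Zbtb38fl/fl without Cre), entered the fit only to help estimate the spread between mice. Their levels are given beside those of HET and KO for some of the genes and lists. All mice were of the C57Bl6/N strain according to the labels. The sample labels call the cells untreated, while the methods state that the mice had been immunized intraperitoneally with NP-OVA, a hapten coupled to ovalbumin, in alhydrogel. NP-binding GC B cells (GL7+IgD-) were taken 2 weeks later. Age and sex were not given.

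The mouse model sets several limits on what the groups stand for. The floxed allele goes back to 1 founder made in C57Bl6/J zygotes and crossed to C57Bl6/N, and Cre removes exon 3, where the protein is encoded and the gene ends. Vav-Cre acts mainly in hematopoietic cells and from the stem cell onward, so it acts in T cells and myeloid cells as well as in B cells. ZBTB38 HET mice carried Cre and 1 floxed allele, so an effect of Cre alone is shared by both groups, and no library with Cre and 2 unfloxed alleles was compared.

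ZBTB38 belongs to the BTB-ZF transcription factors, proteins that pair through a BTB domain and bind DNA through zinc fingers. Several members direct lymphocyte fate. BCL-6 is required for the GC, and ZBTB20 and ZBTB32 act in plasma cells and in recall responses. ZBTB38 differs from most of the family in that it binds methylated CpG sites, and it can repress or activate transcription with partners such as CtBP. GC B cells cycle between a dark zone, where they divide and mutate their antibody genes, and a light zone, where they compete for antigen and for the help of T follicular helper cells. They leave as memory B cells or plasma cells.

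The libraries held between 26612431 and 33894832 estimated counts each in HET and KO, and TMM factors over all 10 libraries were between 0.923 and 1.07. Cells in both groups carried the RNA of GC B cells. S1pr2, a receptor that confines cells to the GC, was at 661 and 644 CPM (counts scaled to the TMM-normalized library size) in HET and had a lowest, median and highest value of 296, 542 and 602 CPM in KO. Cd79a, a chain of the B cell receptor, was at 1732 and 1800 CPM in HET and at 1713, 2101 and 2982 CPM in KO, whereas Cd3e, a component of the T cell receptor complex, was at 1.59 and 4.20 CPM in HET and at 3.70, 7.02 and 7.40 CPM in KO. KO replicate 6 stood apart from the others. It lay at 79.3 on the first principal component (31.6% of the variance), where the next highest library was at 0.733. In it alone of the 8 libraries 421 genes were at 0. Such lone zeros numbered 134 and 82 in the HET libraries, 148 in KO replicate 1 and between 16 and 51 in KO replicates 2 to 5. The Y-linked genes, 6 of which were listed and 4 tested, summed to 2.68 and 1.99 CPM in HET, to between 208 and 257 CPM in KO replicates 1, 2 and 5, and to between 4.17 and 6.94 CPM in KO replicates 3, 4 and 6. Both HET libraries thus shared a low Y-linked level with only 3 of the 6 KO libraries. In WT the genes summed to 210 and 279 CPM, so HET and WT differed in Y-linked level as well as in genotype. Where WT levels are set beside HET, these cannot be told apart.

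Zbtb38 itself differed in the direction the genotypes give. The gene (ENSMUSG00000040433.16, chr9:96682770-96752831 on the minus strand of GRCm38) was at 117 and 106 CPM in HET. In KO its lowest, median and highest values were 18.6, 30.3 and 50.3 CPM, and in WT it was at 162 and 152 CPM. No KO library reached either HET library, and both HET libraries lay below both WT libraries. The log2 fold change of HET over KO was 1.82 (SE 0.261, edgeR adjusted p = 0.128), which did not pass the threshold of an adjusted p under 0.1. DESeq2 gave an adjusted p of 2.58e-06 for it. With counts scaled by transcript length the log2 fold change was 0.87 (edgeR adjusted p = 0.411), and with limma on log2(TPM + 1) the difference was 0.99 (adjusted p = 0.638).

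The difference was concentrated in the transcripts that hold most of the coding sequence. ENSMUST00000152594.7 is the only transcript with counts that holds all 3594 coding bases, and 15.5% of its length lies upstream of them. It was at 82.9 and 64.2 CPM in HET. In KO replicates 1 to 6 it was at 7.28, 22.0, 16.5, 18.8, 10.2 and 4.32 CPM. The KO mean of 13.2 ± 6.98 CPM (SD, n = 6) was 18.0% of the HET mean of 73.5 ± 13.2 CPM (SD, n = 2). These counts are for the whole transcript and were not split by exon, so 18.0% is not the level of the floxed exon. From reads aligned to the genome, the paper reports complete loss of RNA from the floxed exon in KO and intermediate levels in HET. The HET minus KO difference of 2.56 in mean log2(CPM + 1) of the transcript had a two-sided exact permutation p of 0.0357, the smallest that 2 against 6 libraries allow. Without either HET library the smallest possible p is 0.143, and the difference was then between 2.37 and 2.74.

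Levels of different transcripts were compared in TPM, a unit that takes transcript length into account. ENSMUST00000126066.7, with 2772 coding bases and 5.62% of its length upstream of them, was at 3.37 and 7.67 TPM in HET and between 0.133 and 0.656 TPM in KO, a KO mean of 7.93% of the HET mean. ENSMUST00000140121.7, with 1632 coding bases and 38.9% upstream, was at 9.05 and 8.90 TPM in HET and between 2.48 and 5.55 TPM in KO, a KO mean of 40.2% of the HET mean. The groups did not overlap for either of these (two-sided exact permutation test, p = 0.0357 each). ENSMUST00000128269.7, with 553 coding bases and 40.5% upstream, was at 21.8 and 20.8 TPM in HET and at a lowest, median and highest 14.2, 16.3 and 35.6 TPM in KO, where the 2 groups overlapped (exact permutation p = 0.643). On the same scale ENSMUST00000152594.7 had a KO mean of 17.5% of the HET mean. The KO level relative to HET was thus lowest for the 2 transcripts with the most coding bases and highest for the one with the fewest. Salmon apportions shared reads among these transcripts, so their values are not independent of each other. ENSMUST00000093798.8 was at 0 in every library.

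**Figure D1:**
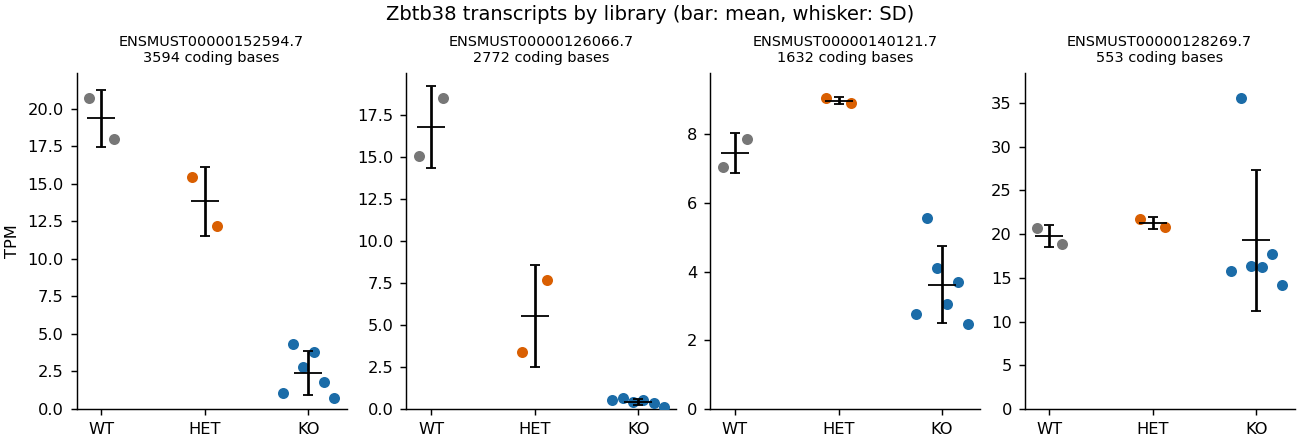
TPM of the 4 Zbtb38 transcripts with counts, 1 panel each, in the WT, HET and KO libraries (points), with the mean (bar) and SD (whisker). For the 3 transcripts with 1632 coding bases or more both HET points lie above all 6 KO points, and for the transcript with 553 coding bases they lie among them.

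Across all genes, few differences passed the threshold. Of 14354 genes tested, 1 had an edgeR adjusted p under 0.1 (0.00697% of the genes tested): Hnrnpll, which was lower in HET. An unadjusted p under 0.05 was reached by 1467 genes (10.2%), of which 784 were higher in HET (5.46% of the genes tested) and 683 lower (4.76%). Both HET libraries lay above all 6 KO libraries for 1166 genes (8.12%) and below all of them for 827 (5.76%). The number that passed depended on the tool: DESeq2 on the same counts called 458 genes at an adjusted p under 0.1, 205 higher in HET (1.43%) and 253 lower (1.76%). The median log2 fold change of all genes tested was -0.07, and 43.7% of them were above 0.

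**Figure D2:**
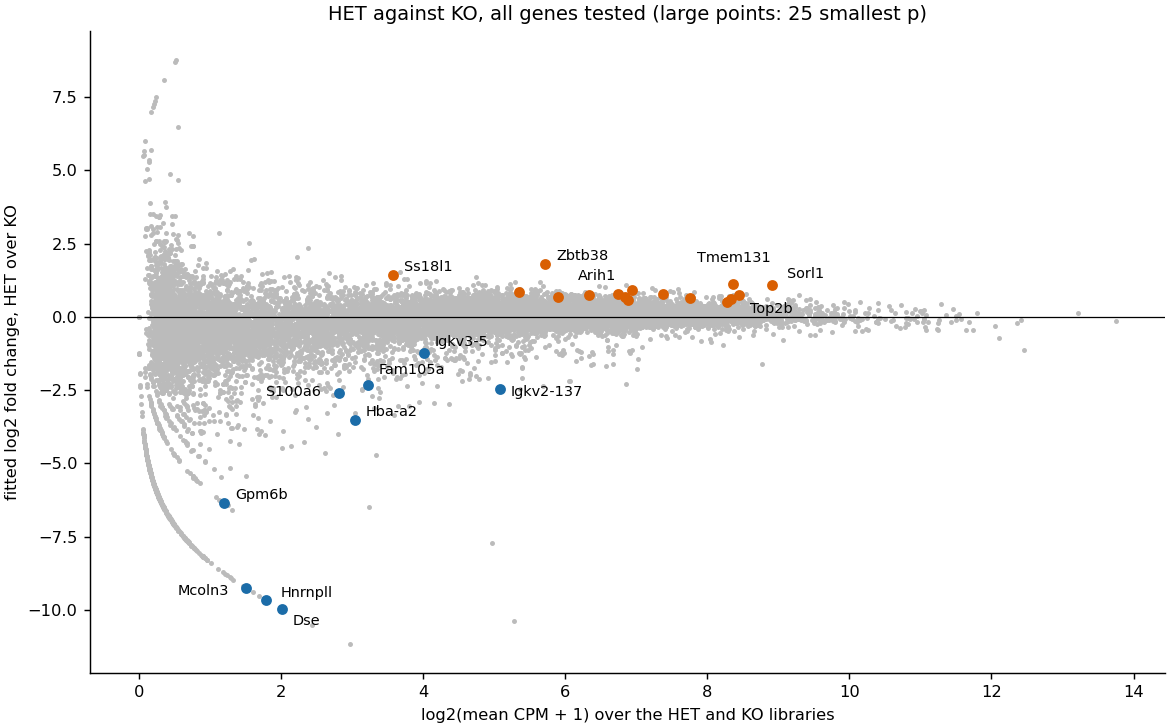
Fitted log2 fold change of HET over KO (vertical axis) against log2(mean CPM + 1) over the HET and KO libraries (horizontal axis) for the 14354 genes tested (grey). The 25 genes with the smallest p are drawn large, orange where higher in HET (16) and blue where lower (9). Of the 9 lower genes, Hnrnpll, Dse, Mcoln3 and Gpm6b had 1 count or none in HET.

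Hnrnpll encodes an RNA-binding protein that regulates alternative splicing in lymphocytes, among its targets the exons of CD45. Its gene (ENSMUSG00000024095.15, chr17:80029487-80062334 on the minus strand of GRCm38) had 0 counts in both HET libraries. KO replicates 1 to 6 held 59, 105, 91, 127, 54 and 166 counts, a lowest, median and highest level of 1.82, 3.38 and 4.99 CPM. The WT libraries held 202 and 149 counts, or 4.85 and 5.15 CPM. Every KO and WT library thus had at least 54 counts of the gene and neither HET library had any, and at this low level 0 counts do not show that the transcript was absent. The level in KO was at least 32.1-fold higher when the 0 of each HET library was set at 3 counts, and the edgeR adjusted p was 0.0496. The call rested on several libraries: without HET replicate 1 or 2 the adjusted p was 0.921 or 0.412, without KO replicate 3 or 4 it was 0.172 or 0.168, and without WT replicate 1 or 2 it was 0.173 or 0.177. It was 0.222 in a fit of the HET and KO libraries alone and 6.83e-06 with DESeq2. In edgeR it was 0.123 with counts scaled by transcript length and 0.163 with the replicate number as a block. It was 0.179 without KO replicates 1, 2 and 5, and 0.568 with limma on log2(TPM + 1). With KO replicate 1, 2, 5 or 6 left out, the edgeR adjusted p was 0.0861, 0.0475, 0.0793 or 0.0505.

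Of the 3 Hnrnpll transcripts, ENSMUST00000184635.7 carried most of the level, with 0.553 to 1.73 TPM in the KO libraries and 0 in both HET libraries. ENSMUST00000061331.13 and ENSMUST00000184297.7 were each at 0 in some KO libraries as well and did not exceed 0.361 and 0.922 TPM. The pattern of Hnrnpll was shared by other genes of low level. In all, 30 genes were at 0 in both HET libraries and above 0 in every KO library, and 15 were at 0 in every KO library and above 0 in both HET libraries. With 2 HET and 6 KO libraries these counts are not on an equal footing. Genes at 0 in a single library were also more frequent in each HET library (134 and 82) than in KO replicates 2 to 5 (16 to 51). Only 5 of the 30, Dse, Hnrnpll, Mcoln3, Serpinc1 and Il1a, had at least 10 counts in every KO library. Serpinc1 and Il1a were each also at 0 in 1 of the 2 WT libraries. These genes were chosen for their zeros, and no test of them as a group was made.

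The 25 genes with the smallest p are described next. Apart from Hnrnpll they did not pass edgeR's threshold, with adjusted p between 0.128 and 0.255, and all 25 passed DESeq2's. They were chosen for their p in this contrast, so that the separation of their HET and KO libraries, seen for all 25, only describes the choice. Of the 25, 16 were higher in HET and 9 lower.

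After Zbtb38, the 3 genes with the largest log2 fold changes among those higher in HET encode a chromatin factor and membrane proteins. Ss18l1 encodes a subunit of chromatin remodeling complexes. It was at 23.7 and 17.5 CPM in HET, at a lowest, median and highest 4.65, 7.94 and 9.94 CPM in KO and at 9.58 and 12.6 CPM in WT, a log2 fold change of 1.43 (SE 0.290, edgeR adjusted p = 0.255). Tmem131 encodes a transmembrane protein. It was at 544 and 568 CPM in HET, at 175, 240 and 365 CPM in KO and at 289 and 249 CPM in WT (log2 fold change 1.14, SE 0.210, edgeR adjusted p = 0.220). Sorl1, a sorting receptor of the endosome and Golgi, was at 787 and 807 CPM in HET, at 293, 343 and 530 CPM in KO and at 500 and 499 CPM in WT (log2 fold change 1.09, SE 0.202, edgeR adjusted p = 0.220). For all 3 genes the WT libraries lay below both HET libraries, nearer to the KO levels.

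Several of the other genes higher in HET encode enzymes that attach or remove ubiquitin. Arih1, a ubiquitin ligase, was at 115 and 114 CPM in HET and at a lowest, median and highest 58.1, 69.3 and 74.3 CPM in KO, a log2 fold change of 0.75 (SE 0.122, edgeR adjusted p = 0.157). The ubiquitin ligase Trip12, the ubiquitin-conjugating enzymes Ube2h and Ube2j1 and the deubiquitinase Usp28 had log2 fold changes of 0.59, 0.64, 0.49 and 0.68. No ubiquitin gene list was tested. Lipid enzymes were present as well. Lpin2, a phosphatidate phosphatase, was at 235 and 249 CPM in HET and at 128, 136 and 169 CPM in KO (log2 fold change 0.79, SE 0.124, edgeR adjusted p = 0.157), and Etnk1, an ethanolamine kinase, had a log2 fold change of 0.91.

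Top2b, which encodes the DNA topoisomerase that is also used by cells that do not divide, was at 502 and 502 CPM in HET, at 241, 313 and 321 CPM in KO and at 385 and 337 CPM in WT (log2 fold change 0.76, SE 0.127, edgeR adjusted p = 0.157). Trp53inp1, a p53-induced stress gene, was at 178 and 132 CPM in HET and at 80.3, 92.5 and 101 CPM in KO (log2 fold change 0.78). Ppp1r15b, a subunit of the phosphatase that reverses eIF2α phosphorylation, had a log2 fold change of 0.69. The cytoskeletal regulators Fgd6, a guanine nucleotide exchange factor, and Myo1e, a class I myosin, had log2 fold changes of 0.86 and 0.61. Of the 16 genes higher in HET, these 15 beside Zbtb38 had log2 fold changes between 0.49 and 1.43, all smaller than that of Zbtb38.

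The 9 genes lower in HET were at at most 67.9 CPM in any HET or KO library, and they include an alpha globin and 2 antibody gene segments. Dse, an epimerase of dermatan sulfate, and Mcoln3, a cation channel of endosomes, had 0 counts in both HET libraries. In KO replicates 1 to 6 they held 11, 71, 124, 112, 81 and 366 counts and 10, 80, 21, 98, 58 and 192 counts, so that KO was at least 39.6-fold and 24.0-fold higher against 3 counts in each HET library. Both were lowest in KO replicate 1 and highest in KO replicate 6. Gpm6b, a membrane glycoprotein, had 1 count in the HET libraries together, a ratio of KO over HET of 105 with a 95% counting interval of 18.7 to 4160. The interval and the bounds cover counting error only.

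Igkv2-137 and Igkv3-5 are variable segments of the immunoglobulin kappa chain, whose level depends on the B cell clones present and whose reads can be divided among similar segments. Igkv2-137 was at 5.39 and 9.81 CPM in HET, at 26.7, 35.8 and 67.9 CPM in KO and at 30.8 and 38.4 CPM in WT, a log2 fold change of -2.45 (SE 0.393, edgeR adjusted p = 0.157). Igkv3-5 had a log2 fold change of -1.25. Hba-a2, an alpha globin gene with a near-identical neighbour in Hba-a1, was at 0.860 and 0.760 CPM in HET, at 4.92, 8.73 and 15.1 CPM in KO and at 3.10 and 6.29 CPM in WT (log2 fold change -3.52, SE 0.592, edgeR adjusted p = 0.157). S100a6, a calcium-binding protein, and Fam105a, which is related to deubiquitinases, had log2 fold changes of -2.58 and -2.32.

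Of the 25 genes, 5 lie on chromosome 9 with Zbtb38, which carries 839 (5.85%) of the genes tested: Zbtb38 itself, Myo1e, Arih1, Usp28 and Sorl1. The last 4 lie 26.3, 37.2, 47.6 and 54.6 Mb from Zbtb38. The nearest neighbours of the gene were also examined, since the founder's C57Bl6/J segment around the floxed allele can differ from C57Bl6/N. Of 58 genes within 5 Mb of Zbtb38, 41 were tested and none passed edgeR's threshold, while DESeq2 called 1 higher and 1 lower in HET. The median log2 fold change of the 41 was -0.04, 3 had an unadjusted p under 0.05 in edgeR and were higher in HET, and 1 was lower. With offsets that remove each library's trend with transcript length 1 was higher and 2 were lower, and without KO replicate 6 it was 2 in each direction. Msl2, a subunit of a histone acetylation complex, was at 71.5 and 83.0 CPM in HET and at 43.0, 49.9 and 54.4 CPM in KO. Its log2 fold change was 0.65 (SE 0.154, edgeR adjusted p = 0.264, DESeq2 adjusted p = 0.00977) and 0.44 with the offsets. Rasa2 and Copb2 had log2 fold changes of 0.31 and 0.34 (0.17 and 0.25 with the offsets). Pccb, a mitochondrial carboxylase subunit, had -1.16 (-1.14 with the offsets, DESeq2 adjusted p = 0.0993). Nnt, on another chromosome, is known to differ between the 2 substrains. It was at 16.2 and 18.4 CPM in HET, at 26.7 and 28.2 CPM in KO replicates 3 and 4, at 9.37 to 12.7 CPM in the other KO libraries and at 16.0 and 32.7 CPM in WT. Its level thus varied within KO and within WT more than between the means of HET and KO, and its part in the other differences was not tested.

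Gene lists were then used to describe the state of the cells. No member of any list passed edgeR's threshold, so lists are given by how many members had an unadjusted p under 0.05 in each direction and by the median log2 fold change, to be read against 5.46% higher, 4.76% lower and a median of -0.07 for all genes tested. At an adjusted p under 0.1 DESeq2 did call list members, beside 1.43% of all genes higher in HET and 1.76% lower. Lower in HET were 6 naive and memory, 6 T cell, 4 plasma cell, 4 Y-linked, 3 myeloid and 3 erythroid genes. Higher were 4 genes each of the dark zone, DNA repair and B cell receptor lists. Of the BTB-ZF list 3 were higher and 1 lower, and the other lists held 0 to 2 in each direction. A member that did not reach edgeR's adjusted threshold is given by its values only.

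The GC B cell list lay toward HET. Of 16 members 15 had a log2 fold change above 0, with a median of 0.30, 2 of them with an unadjusted p under 0.05. Without KO replicate 6 the median was 0.20 and 4 had such a p, where 5.97% of all genes did in that direction. Gna13, a G protein subunit that acts downstream of S1pr2, was at 403 and 367 CPM in HET and at a lowest, median and highest 193, 269 and 316 CPM in KO (log2 fold change 0.55, SE 0.166, edgeR adjusted p = 0.370). Efnb1, a surface ephrin of GC B cells, had a log2 fold change of 0.76 and Klhl6, a ubiquitin ligase adaptor needed for GC formation, had 0.44. S1pr2 had a log2 fold change of 0.38 (edgeR adjusted p = 0.562). Bcl6 overlapped between the groups, with a log2 fold change of 0.29 (edgeR adjusted p = 0.606). The summed level of the list was 7028 and 7010 CPM in HET and between 3803 and 7468 CPM in KO, where the groups overlapped. In WT it was 5550 and 5236 CPM. The 18 genes of B cell identity had a median of -0.0046, with 9 above and 9 below 0. Pou2af1, the coactivator of octamer factors, was at 2091 and 2101 CPM in HET and at most 1758 CPM in KO (log2 fold change 0.42, edgeR adjusted p = 0.370). Cd79a had a log2 fold change of -0.35.

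Genes of the dark zone and of mitosis showed the same lean. Of 19 tested, 8 had an unadjusted p under 0.05, all 8 higher in HET, and the median log2 fold change was 0.20. With offsets for transcript length, 5 had such a p and the median was 0.13. Top2a, the topoisomerase of dividing cells, was at 804 and 766 CPM in HET and at 427, 501 and 645 CPM in KO (log2 fold change 0.58, SE 0.151, edgeR adjusted p = 0.314). The spindle checkpoint kinase Bub1 was at 176 and 202 CPM in HET and at 107, 127 and 145 CPM in KO (log2 fold change 0.55), and Bub1b also had 0.55. Polh, the error-prone polymerase of hypermutation, was at 105 and 115 CPM in HET and at 42.1, 62.6 and 90.8 CPM in KO (log2 fold change 0.74). Mki67, a marker of cycling cells, overlapped between the groups, at 603 and 725 CPM in HET and up to 615 CPM in KO. The summed level of the list was 5717 and 5900 CPM in HET, between 4378 and 5448 CPM in KO and 4814 and 3975 CPM in WT.

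The light zone list was mixed, with 9 of 19 above 0, 2 with an unadjusted p under 0.05 in each direction, and a median of -0.13 (-0.01 with offsets for transcript length). The chemokine receptor Ccr6 was at 9.31 and 8.61 CPM in HET, at a lowest, median and highest 10.6, 24.6 and 35.3 CPM in KO and at 24.9 and 26.2 CPM in WT (log2 fold change -1.46, SE 0.391, edgeR adjusted p = 0.322). Ccnd2, a D-type cyclin, had a log2 fold change of -1.41. The costimulatory molecule Cd86 lay the other way, at 229 and 196 CPM in HET and at most 184 CPM in KO, a log2 fold change of 0.34.

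Genes of naive and memory B cells lay below in HET. Of 16 tested 14 had a log2 fold change under 0, and 9 of these had an unadjusted p under 0.05. The median was -1.17 and was -0.86 without KO replicate 6, where 9 members had such a p and 5.38% of all genes did in that direction. Klf2, a transcription factor of resting, recirculating lymphocytes, was at 32.6 and 38.7 CPM in HET, at 60.3, 88.2 and 225 CPM in KO and at 119 and 137 CPM in WT (log2 fold change -1.67, SE 0.435, edgeR adjusted p = 0.315). Gpr183, an oxysterol receptor that positions B cells outside the GC, was at 19.4 and 13.9 CPM in HET and at 28.5, 35.6 and 63.8 CPM in KO (log2 fold change -1.23). The homing receptor Ccr7 and the memory-associated factor Hhex had log2 fold changes of -1.73 and -1.31, whereas Fcer2a, one of the most abundant of the list in CPM, had -0.28. The summed level of the list was 697 and 705 CPM in HET and at 890, 1021, 941, 1413, 873 and 1946 CPM in KO replicates 1 to 6. In WT it was 1178 and 1346 CPM. Both HET libraries lay below every KO library, and KO replicate 6, the library that stood apart in the principal components, was the highest. In bulk libraries, fewer cells of a type and less RNA per cell cannot be told apart, and IgD- cells had been selected.

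Plasma cell genes lay in the same direction with 13 of 16 under 0, a median of -0.41 and 4 with an unadjusted p under 0.05, all lower in HET. Fkbp11, a chaperone of the secretory pathway, was at 0.637 and 0.326 CPM in HET, at 2.04, 5.22 and 21.2 CPM in KO and at 5.07 and 5.81 CPM in WT (log2 fold change -3.99, SE 1.01, edgeR adjusted p = 0.305). Sec11c, a signal peptidase subunit, was at 134 and 130 CPM in HET and at 174, 205 and 292 CPM in KO (log2 fold change -0.69). Ly6c2 and Sdc1, the gene of the plasma cell surface marker CD138, had log2 fold changes of -2.96 and -2.35, and Jchain, the joining chain of polymeric antibody, overlapped between the groups with -0.31. The summed level was 3350 and 3210 CPM in HET, between 3190 and 4224 CPM in KO and 3866 and 3519 CPM in WT.

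Immunoglobulin constant regions followed the naive genes in part. Ighm was at 2769 and 3254 CPM in HET, at a lowest, median and highest 3848, 5386 and 11773 CPM in KO and at 7540 and 7853 CPM in WT (log2 fold change -1.11, SE 0.370, edgeR adjusted p = 0.376). Ighd had a log2 fold change of -1.26. Ighg1, the main switched isotype in responses to protein with alum, was at 2922 and 3278 CPM in HET and between 353 and 3545 CPM in KO, where the groups overlapped. Of 8 isotype genes, 2 had an unadjusted p under 0.05 and were lower in HET. The genes of the lambda and heavy chains that commonly bind NP, with Igkc, were 7, all with a log2 fold change under 0 and a median of -0.20, which was 0.16 with offsets for transcript length. Igkc was the only one of the 7 with an unadjusted p under 0.05 (log2 fold change -0.72).

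**Figure D3:**
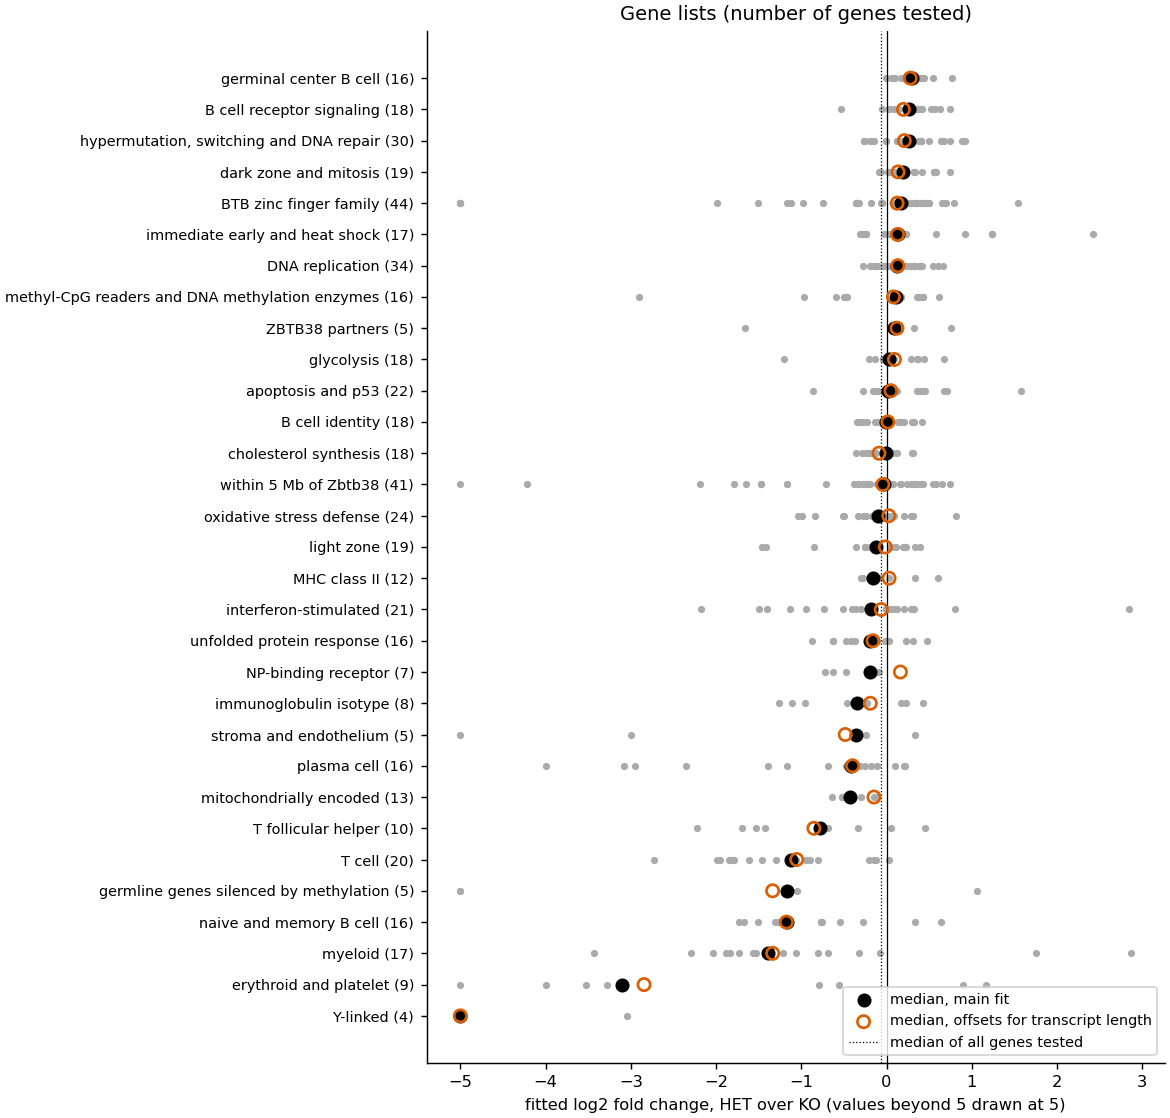
Fitted log2 fold change of HET over KO for each tested member of the gene lists (grey points), with the list's median in the main fit (black) and with offsets for transcript length (open orange); the dotted line is the median of all genes tested, and values beyond 5 are drawn at 5. Medians of the GC B cell, B cell receptor, DNA repair and dark zone lists lie between 0.20 and 0.30. Those of the naive and memory, T cell, myeloid, erythroid, germline (5 genes tested) and Y-linked lists lie at -1.13 or below.

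Markers of cells other than B cells lay lower in the HET libraries. Of 20 T cell genes 19 had a log2 fold change under 0, with 10 at an unadjusted p under 0.05, all lower in HET, and a median of -1.13. Trbc2, a constant region of the T cell receptor beta chain, was at 3.28 and 4.20 CPM in HET, at 7.92, 14.2 and 24.2 CPM in KO and at 23.8 and 30.7 CPM in WT (log2 fold change -1.98, SE 0.445, edgeR adjusted p = 0.255). Trbc1, the signaling adaptor Lat and the adhesion molecule Cd2 had log2 fold changes of -1.83, -1.79 and -0.80. Lck, a kinase of T cell receptor signaling, overlapped between the groups, with a log2 fold change of 0.03. No T cell marker was at 0 in both HET libraries. The list summed to 269 and 284 CPM in HET, to between 318 and 471 CPM in KO and to 511 and 550 CPM in WT. Of 10 genes of T follicular helper cells 8 had a log2 fold change under 0, and Pdcd1 and Cd40lg, which encode PD-1 and the ligand that drives GC B cells through CD40, had -1.43 and -1.53. That list summed to 135 and 141 CPM in HET and to between 86.6 and 186 CPM in KO, where the groups overlapped.

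Myeloid genes had a median log2 fold change of -1.39 over 17 members, of which 6 had an unadjusted p under 0.05, all lower in HET. Cd14 was at 0.191 and 0.326 CPM in HET and at 0.433, 2.36 and 6.76 CPM in KO (log2 fold change -3.43), and the lysosomal protein Cd68 and the complement component C1qc had -1.39 and -1.83. Lyz2, lysozyme, was at 35.7 and 22.7 CPM in HET and ranged from 20.9 to 522 CPM in KO, and Apoe had a log2 fold change of -0.08. The list summed to 547 and 554 CPM in HET, to between 506 and 1257 CPM in KO and to 1154 and 1064 CPM in WT. Of 12 erythroid and platelet genes 9 were tested, 3 of them globin genes with an unadjusted p under 0.05, lower in HET. Hbb-bs, a beta globin, was at 2.20 and 0.434 CPM in HET and at 5.47, 11.9 and 15.9 CPM in KO (log2 fold change -3.11), and Hba-a1 had -3.28. The list summed to 39.4 and 36.7 CPM in HET, to between 57.0 and 96.5 CPM in KO and to 47.0 and 57.8 CPM in WT. Of the 12 genes 3 were at 0 in both HET libraries, Slc4a1 and Ppbp among them, and 2 in all 6 KO libraries. Of 10 stromal and endothelial genes 5 were tested, with a median of -0.35 (-0.20 without KO replicate 6) and none at an unadjusted p under 0.05. In both HET libraries 4 of the 10 were at 0, Cxcl13, Col1a2, Col3a1 and Clu, and 1 was at 0 in all 6 KO libraries. A gene is at 0 in 2 libraries more easily than in 6. The counts of genes at 0 in the erythroid and stromal lists thus do not compare the groups. The summed naive, T cell and erythroid levels thus did not overlap between HET and KO, the plasma cell and myeloid sums did, and their part in the differences of other genes was not tested.

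**Figure D4:**
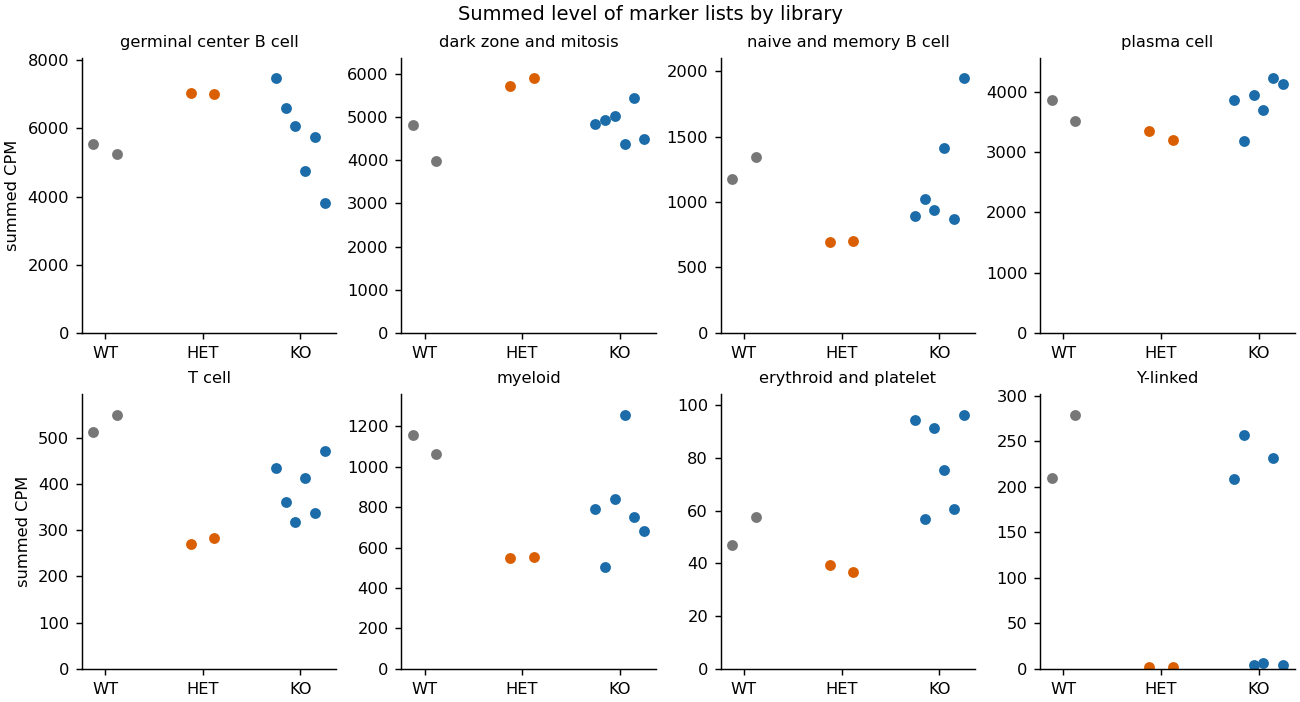
Summed CPM of 8 marker lists (panels, vertical axes from 0) in each WT, HET and KO library (points). Both HET libraries lie below all 6 KO libraries for the naive and memory B cell, T cell and erythroid lists, and the Y-linked sum splits the KO libraries into 3 at 208 CPM or more and 3 at no more than 6.94 CPM.

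Lists tied to ZBTB38 came next. Of 44 other BTB-ZF genes, 27 had a log2 fold change above 0, with 6 higher and 2 lower at an unadjusted p under 0.05 and a median of 0.16. Zbtb40 was at 23.6 and 22.9 CPM in HET, at a lowest, median and highest 3.03, 8.50 and 11.2 CPM in KO and at 10.2 and 8.43 CPM in WT (log2 fold change 1.54, SE 0.366, edgeR adjusted p = 0.266). Zbtb11 and Zbtb2 had log2 fold changes of 0.69 and 0.79. Zbtb46, a factor of dendritic cells, was at 0.0956 and 0 CPM in HET and up to 3.84 CPM in KO, a log2 fold change of -5.16 that rests on few counts. The 3 members with known roles in B cell responses did not separate the groups. Bcl6 was at 278 and 294 CPM in HET and at 169, 246 and 279 CPM in KO. Zbtb20 was at 376 and 272 CPM in HET and ranged from 107 to 516 CPM in KO (log2 fold change 0.29, SE 0.407). Zbtb32 was at 9.91 and 12.3 CPM in HET and at 11.5, 27.5 and 75.0 CPM in KO (log2 fold change -1.50, SE 0.593, edgeR adjusted p = 0.436).

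Of 16 methyl-CpG readers and enzymes of DNA methylation, 11 had a log2 fold change above 0, with 4 higher and 1 lower at an unadjusted p under 0.05 (2 and 0 with offsets for transcript length). Dnmt1, the maintenance methyltransferase, was at 730 and 790 CPM in HET and at 347, 502 and 653 CPM in KO (log2 fold change 0.61, SE 0.202, edgeR adjusted p = 0.373). Uhrf2 and the reader Mbd1 had log2 fold changes of 0.42 and 0.43. Mbd2, a reader that recruits a deacetylase complex, lay lower in HET, at 137 and 207 CPM against 149, 369 and 526 CPM in KO (log2 fold change -0.97, edgeR adjusted p = 0.469). Of 20 germline genes that DNA methylation keeps silent in somatic cells, 5 passed the filter on low counts and none of these had an unadjusted p under 0.05. Of the 5, 4 had a log2 fold change under 0 and 1 above, with a median of -1.17 (-1.34 with offsets for transcript length). In both HET libraries 16 of the 20 were at 0, and 9 were at 0 in all 6 KO libraries. A gene is at 0 in 2 libraries more easily than in 6, so these counts do not compare the groups. The summed level was 7.84 and 11.2 CPM in HET and between 2.73 and 15.9 CPM in KO.

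None of the 5 genes described as partners or targets of ZBTB38 had an unadjusted p under 0.05. With 2 HET libraries this does not show that their levels were equal. Their median log2 fold change was 0.09, and single genes ranged more widely. Mcm10, a replication factor that ZBTB38 is known to repress, was at 95.9 and 109 CPM in HET and at 59.5, 79.8 and 105 CPM in KO, a log2 fold change of 0.32 (SE 0.211, edgeR adjusted p = 0.613). Rbbp6, a ubiquitin ligase that acts on ZBTB38, had a log2 fold change of 0.07, the deubiquitinase Usp9x had 0.76 (SE 0.354, edgeR adjusted p = 0.501) and the corepressor Ctbp2 had -1.66 at no more than 2.13 CPM in any HET or KO library. Of 34 replication genes 25 had a log2 fold change above 0, with 5 higher (3 with offsets for transcript length) and none lower at an unadjusted p under 0.05 and a median of 0.12. Topbp1, a checkpoint protein, the polymerase subunit Pole and the helicase subunit Mcm6 had log2 fold changes of 0.54, 0.61 and 0.40.

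Of 30 genes of hypermutation, class switching and DNA repair, 6 had an unadjusted p under 0.05, all higher in HET, with a median of 0.26 (0.21 with offsets for transcript length, 4 at such a p). Msh6, a mismatch repair protein, was at 339 and 360 CPM in HET and at 150, 219 and 289 CPM in KO (log2 fold change 0.68, SE 0.186, edgeR adjusted p = 0.322). Prkdc, the kinase of end joining, was at 75.6 and 68.4 CPM in HET and at 22.5, 39.5 and 50.4 CPM in KO (log2 fold change 0.92), and Trp53bp1, which protects breaks during switching, had 0.91. B cell receptor signaling had 8 of 18 genes at such a p, all higher in HET, and a median of 0.27 (0.20 and 5 genes with offsets for transcript length). The proximal kinase Syk was at 988 and 918 CPM in HET and at 510, 672 and 773 CPM in KO (log2 fold change 0.52, SE 0.158, edgeR adjusted p = 0.370). Pik3cd, the catalytic subunit that makes PIP3, had a log2 fold change of 0.74, and Inpp5d, a phosphatase that acts on PIP3, had 0.63. The summed level of the B cell receptor list was 8069 and 8216 CPM in HET, between 6301 and 7281 CPM in KO and 7158 and 7510 CPM in WT.

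The remaining lists held 0 to 2 genes at an unadjusted p under 0.05. Apoptosis and p53 genes had 2 of 22, both higher in HET, among them Casp9, an initiator caspase (log2 fold change 0.43), and a median of 0.01. Oxidative stress defense had 1 of 24, Prdx5, a peroxiredoxin, with a log2 fold change of -0.50. MHC class II had 1 of 12, its regulator Rfx5 (log2 fold change 0.60), and the unfolded protein response had 1 in each direction of 16, the sensor kinase Eif2ak3 (0.47) and the chaperone Pdia4 (-0.87). Glycolysis had 1 of 18. Immediate early and heat shock genes, interferon-stimulated genes, cholesterol synthesis and the 13 mitochondrially encoded genes had none, with medians of 0.13, -0.18, -0.01 and -0.43. The interferon and mitochondrial medians were -0.07 and -0.21 without KO replicate 6 and -0.06 and -0.15 with offsets for transcript length, under which 2 interferon-stimulated genes had such a p and were lower in HET. All 13 mitochondrial genes had a log2 fold change under 0, and their sum was 20933 and 16582 CPM in HET and between 14324 and 37946 CPM in KO, highest in KO replicate 6.

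A trend with transcript length ran through the comparison. Among 8587 genes with a mean of at least 10 CPM, the log2 fold change of HET over KO increased with the length of the transcript, with a Spearman correlation of 0.581 across genes, which are not independent replicates. In 5 classes of equal size from the shortest to the longest, the median log2 fold change was -0.21, -0.06, 0.05, 0.17 and 0.31. The share of genes with an unadjusted p under 0.05 and higher in HET was 0.116% in the shortest class and 24.2% in the longest, and the share lower in HET was 8.67% and 1.16%. The 16 genes higher in HET among the 25 had a median length of 4612 bases, the 9 lower genes had 2750 bases and all genes tested had 2514 bases. KO libraries differed among themselves in the same respect: the difference between the longest and the shortest class, as a median log2 deviation from the mean of the libraries, was 0.335 and 0.440 in HET, 0.246 and 0.244 in WT, and -0.742, 0.259, -0.221, 0.270, 0.0139 and -0.333 in KO replicates 1 to 6. Both HET libraries were higher than all KO libraries, of which replicates 2 and 4 came close.

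With offsets that removed each library's trend with length, a choice made after seeing the data, the correlation was 0.133 and 3 genes passed the threshold. Sorl1 was higher in HET (log2 fold change 1.02, edgeR adjusted p = 0.00563), as was Zbtb38 (1.77, edgeR adjusted p = 0.0510), and Hnrnpll was lower (edgeR adjusted p = 0.0230). Of the genes tested, 3.89% were then higher at an unadjusted p under 0.05 and 4.10% lower. The medians of the naive and memory, T cell and myeloid lists were -1.18, -1.05 and -1.34 with the offsets, close to their values without them, and that of the GC B cell list was 0.28.

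**Figure D5:**
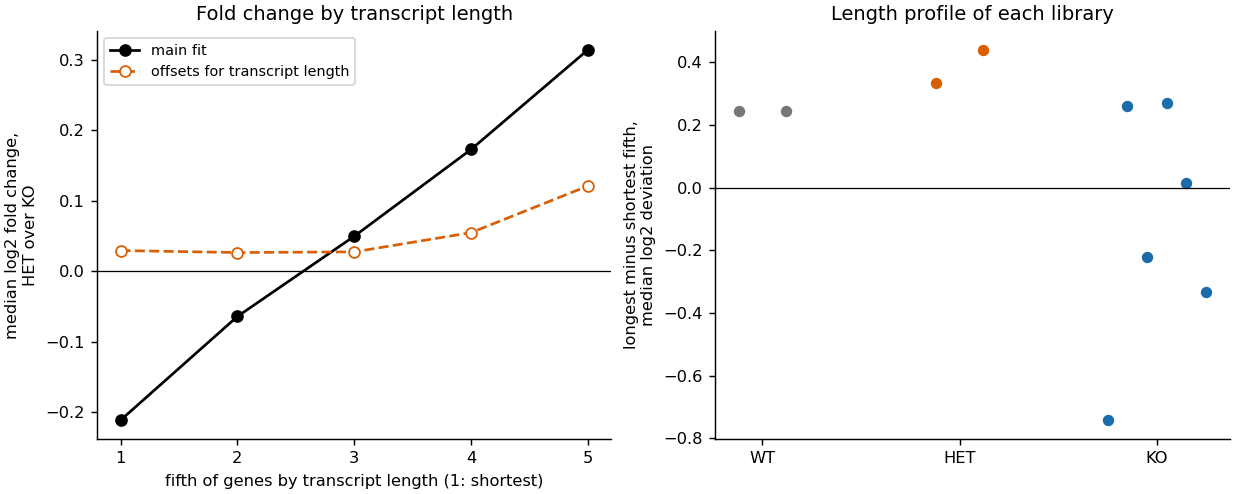
Left, median log2 fold change of HET over KO in 5 classes of genes by transcript length, in the main fit (filled) and with offsets for transcript length (open); it runs from -0.21 to 0.31 in the main fit. Right, difference between the longest and the shortest class in each library (points), which is above 0 in all WT and HET libraries and between -0.742 and 0.270 in KO.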

How the data were processed

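NP-binding GC B cells of 2 ZBTB38 HET, 6 ZBTB38 KO and 2 ZBTB38 WT mice were compared, with 1 library per mouse grouped by the genotype label. The authors made SMART-Seq v4 libraries, sequenced paired-end reads on a HiSeq 4000 and quantified Gencode vM17 coding transcripts with Salmon (version 0.9.1 in the submitters' processing notes, which also name DESeq2 2.11.40.6). Each deposited file gives, for every transcript, Salmon's estimated counts without normalization beside TPM values, which the authors' run of Salmon scaled for transcript length and library size.

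Estimated counts of 64019 transcripts were summed into 22380 genes and rounded. Positions came from Gencode vM21 (GRCm38), which matched 22349 genes. A total of 14 symbols belonged to more than 1 gene identifier. HET was compared with KO by edgeR 4.0.16 (quasi-likelihood test, TMM, filterByExpr, a term per genotype, all 10 libraries) in R 4.3.3, with Benjamini-Hochberg adjustment and the study's threshold of 0.1. Standard errors are the log2 fold change over the square root of F. Zbtb38 transcripts were compared by exact permutation tests (scipy 1.17.1, pseudocount 1). A count of 0 was set at 3 counts in each library of the group for bounds, and depth limits cover counting error only, since duplicates were not distinguished. No pair of libraries of a genotype agreed within sampling noise (chi-square per gene from 27.8 to 170). The fit was tested on simulated independent counts with the same dispersion for every gene. They held no trend with transcript length and no library that stood apart, so the fit was not tested under those traits of these data.

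The genes, the 30 gene lists and the tests were chosen with earlier results of these data known. Named genes are Zbtb38, called genes, the 25 smallest p, up to 4 genes of smallest p and 2 of highest level per list, genes within 5 Mb, and Mcm10, Rbbp6, Usp9x, Bcl6, Zbtb20, Zbtb32 and Nnt. Members of a list named beside these, and the genes at 0 in HET, were chosen after their values were seen. The alternatives were DESeq2 1.42.0 and its size factors, limma 3.58.1 on log2(TPM + 1) and log2(TPM + 0.1), other filters, counts scaled by length, immunoglobulin genes left out, a replicate block, a robust fit, a threshold of 0.05, HET and KO alone, and each library left out. A covariate for the Y-linked level, KO without the replicates of high Y-linked level, and offsets for transcript length (loess span 0.3) were chosen after seeing the data. Figures were drawn with matplotlib 3.10.9. No authors' comparison columns were used. Some listed genes are not reported here by name.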

Additional observations from a re-analysis of the deposited data

Results flagged for a closer look

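In 71 sets of 6 KO values, the highest or lowest library was compared with the others by its gap to the next, as a share of the range, and 10 sets had a gap above Dixon's 95% critical value for 6 samples. Chance gives about 1 in 20, or 3.55 sets, if the sets are independent and their values normally distributed. The sets share libraries and some genes, and CPM values can be skewed, so 10 against 3.55 does not measure an excess. The gaps came from KO replicate 6 in 4 sets, and from KO replicates 1 and 2 in 3 each.

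KO replicate 6 was highest for Zbtb32 (75.0 CPM, next 31.4 CPM, gap 0.687 of the range), for Dse (11.0 CPM, next 4.04 CPM, gap 0.656), for Gpm6b (4.39 CPM, next 1.89 CPM, gap 0.663) and on the first principal component (79.3, next 0.733, gap 0.833). KO replicate 2 was highest for Lpin2 (169 CPM, next 139 CPM, gap 0.731), for the Zbtb38 transcript ENSMUST00000128269.7 (35.6 TPM, next 17.7 TPM, gap 0.837) and for the summed BTB-ZF list (1656 CPM, next 1303 CPM, gap 0.637). KO replicate 1 was lowest for Usp28 (42.5 CPM, next 50.9 CPM, gap 0.738) and highest for the summed light zone list (2365 CPM, next 2134 CPM, gap 0.689) and the summed apoptosis and p53 list (2395 CPM, next 2134 CPM, gap 0.751). The cause of these gaps was not tested.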

How the results depend on the processing

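The count of genes with an adjusted p under 0.1 was 1, and it was between 0 and 5 when each library was left out in turn: 0 without either HET library (659 and 840 genes at an unadjusted p under 0.05 in edgeR), without KO replicate 3 or 4 (1269 and 1425) or without either WT library (1304 and 1306), 5 without KO replicate 2 and 3 without KO replicate 6. It was 458 with DESeq2, 6 with limma on log2(TPM + 0.1), 2 without a filter, 3 with offsets for transcript length, and 0 in edgeR with at least 10 counts in every library (1251 at an unadjusted p under 0.05), with counts scaled by transcript length (1338), with only the HET and KO libraries (1247) and without the KO libraries of high Y-linked level (1779). With the replicate number as a block it was 4. The other settings gave 1, which with limma on log2(TPM + 1) was Gm1141 and not Hnrnpll. A lone HET library is assumed to vary like the other groups. The cause of these differences was not tested.

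The replicate numbers were not used as pairs in the main fit. Deviations from the group mean correlated at 0.047 and 0.0192 between HET and KO libraries of one number. Between WT and KO they correlated at -0.00797 and 0.127. With 2 libraries in a group the deviations mirror each other, so these values cannot show that libraries of one number were unrelated. With the replicate number as a block, 4 genes passed, Ddx3y, Eif2s3y, Uty and Kdm5d, all Y-linked.

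The difference of the whole coding Zbtb38 transcript was between 2.31 and 2.74 with each library left out, and without either HET library the smallest possible exact p is 0.143. Of 1881 values of 99 named genes, 1779 kept their direction and their side of the threshold, 72 passed only under the alternative, 11 no longer passed and 19 changed sign. None of the genes that changed sign had passed the threshold. All 11 values that no longer passed were those of Hnrnpll, the only gene that passed in the main fit. For the other genes, keeping their side of the threshold meant not passing it again. Nnt changed sign to -0.36 with the Y-linked covariate, -0.32 without the KO libraries of high Y-linked level and -0.058 with length offsets, and was between -0.070 and 0.27 with each library left out. Apoe was at 0.063 with the covariate, 0.052 without those KO libraries, 0.081 with limma and 0.13 with length offsets, and between -0.14 and 0.044 with each library left out. With the block Zbtb20 was at -0.25, Lck at -0.17 and Lyz2 at 0.11. With each library left out, Lck was between -0.033 and 0.12 and Rbbp6 between -0.021 and 0.16. Rbbp6 was at -0.14 with length offsets.

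With 2 HET libraries and 26612431 counts or more per library, a gene at 0 in both is limited by counting at 3 counts in each library, and 0 for genes of low level is not absence.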
